A study of Mus musculus with 6 samples.

Results

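The 10 genes of angiopoietin and vascular endothelial growth factor (VEGF) signalling described here are the ligands Angpt1, Angpt2, Vegfa, Vegfb and Vegfc and the receptors Tek, Tie1, Kdr, Flt1 and Flt4. They were taken by symbol from the platform annotation, and every probe set assigned to 1 of them alone was read, which gave 19 of the 34945 probe sets with a single gene and 10 of 18193 genes. The set was chosen by AFO and control values already seen, in particular the low Angpt1 signal of AFO fat and the lower Kdr and Flt1 signals. Differences between the genotypes in these 10 genes are therefore given as a description, with no test. Of the 19 probe sets 18 had a mean above the detection filter of 4.88 log2 units, and the exception was the dimmer probe set of Angpt2.

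AFO mice were Adiponectin-cre FTO flox/flox, that is, they carried floxed Fto together with a Cre recombinase under adiponectin regulatory sequence, which acts in fat cells. Control mice were FTO flox/flox and carried the floxed gene without the Cre. Both groups were male C57BL/6 mice of 16 weeks on chow with free access to food, and RNA of their epididymal white fat, a visceral depot, was hybridised to Affymetrix arrays, 3 AFO and 3 control arrays of 1 RNA pool each. No group with the Cre and unfloxed Fto was analysed here. Whether the Cre was active in endothelial, mural or stromal cells of the pad cannot be read from these values.

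Blood vessels of fat grow and regress with the tissue. Angpt1, secreted by perivascular and other mesenchymal cells, activates the endothelial receptor Tek (Tie2) and keeps vessels quiescent, while Angpt2, released by endothelial cells, can block or weakly activate the same receptor, and Tie1 is a related receptor that modulates Tek. Vegfa, made by fat cells among others, drives endothelial growth through Kdr, whereas Flt1 binds Vegfa and Vegfb and can act as a trap, and Vegfc signals through Flt4 to lymphatic vessels. The floxed gene, Fto, encodes an enzyme that takes methyl groups off RNA.

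Upstream sequence is shown for the 4 blood vessel receptors. By its brightest probe set each of them was lowest in the pool 2 array of both genotypes, as were Flt4, Vegfc, Vegfa and Angpt2. This did not hold for the 3 dimmer Flt1 probe sets, of which 1451756_at was lowest in pool 3 of both genotypes, 1440926_at in control pool 3 and 1454037_a_at in AFO pool 3. Each stretch runs from 250 bases before to 50 bases after the start of the gene (RefSeq, build GRCm38.p6), 5′ to 3′ on the strand of the gene. Capitals mark GGAA and its reverse complement TTCC, the core recognised by ETS factors, a family needed in endothelial cells.
Tek, chr4:94739039-94739338, + strand: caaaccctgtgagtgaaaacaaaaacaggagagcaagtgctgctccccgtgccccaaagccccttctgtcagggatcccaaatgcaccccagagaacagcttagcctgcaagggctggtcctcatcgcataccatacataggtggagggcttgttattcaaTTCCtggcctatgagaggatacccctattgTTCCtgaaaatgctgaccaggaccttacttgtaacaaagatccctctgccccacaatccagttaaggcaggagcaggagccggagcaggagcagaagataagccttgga
Tie1, chr4:118489800-118490099, - strand: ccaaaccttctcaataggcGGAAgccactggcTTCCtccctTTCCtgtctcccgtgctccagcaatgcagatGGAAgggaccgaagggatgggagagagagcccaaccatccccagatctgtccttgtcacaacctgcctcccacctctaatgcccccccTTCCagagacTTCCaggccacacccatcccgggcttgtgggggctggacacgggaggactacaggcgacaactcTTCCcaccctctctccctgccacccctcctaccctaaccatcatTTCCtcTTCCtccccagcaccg
Kdr, chr5:75978406-75978705, - strand: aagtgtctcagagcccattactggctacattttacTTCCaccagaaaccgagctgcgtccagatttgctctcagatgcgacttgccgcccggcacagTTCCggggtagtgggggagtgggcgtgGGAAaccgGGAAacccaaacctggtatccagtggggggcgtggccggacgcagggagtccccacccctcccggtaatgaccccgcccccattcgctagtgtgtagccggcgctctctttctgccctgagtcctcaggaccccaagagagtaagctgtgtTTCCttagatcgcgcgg
Flt1, chr5:147725962-147726261, - strand: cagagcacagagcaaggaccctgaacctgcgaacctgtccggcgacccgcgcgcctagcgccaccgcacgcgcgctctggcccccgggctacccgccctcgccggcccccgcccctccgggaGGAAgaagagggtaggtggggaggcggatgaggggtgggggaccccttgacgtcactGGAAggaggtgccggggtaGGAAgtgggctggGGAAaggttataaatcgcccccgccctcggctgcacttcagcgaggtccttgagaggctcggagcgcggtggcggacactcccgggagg
The core occurred 2 times in the Tek stretch, 9 times in that of Tie1, 5 times in that of Kdr and 4 times in that of Flt1. A core of so few letters is common, being present in 96% of the 32851 upstream stretches of the same length in the table, with a median of 3 per stretch. The GC box GGGCGG (or CCGCCC) was found 2 times upstream of Kdr and 3 times upstream of Flt1, against 0 times upstream of Tek and Tie1, and 35.7% of all stretches held it. The hypoxia element core ACGTG (or CACGT) was found 0 times in these 4 stretches and is held by 19.6% of all. Letters of the 2 longer motifs and of the ETS core were searched on both strands, and a match is a description of sequence, not a binding site. Of the 10 genes, 8 matched the table of upstream sequences.

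As facts of the whole series, array medians lay between 5.35 and 5.43 log2 units, and with 3 arrays a genotype each value is of limited precision. Fto read 5.45 to 6.13 in AFO and 5.59 to 6.20 in control fat, a difference of -0.12 (SE 0.25), and since the position of its probe sets relative to the floxed part is not given, this does not check the genotype. The 7 tested fat cell markers, from a list of 9 of which 2 were not analysed, had a mean level of 11.22 to 11.74 in AFO arrays. In control arrays it was 11.46 to 11.68. The arrays of pool number 2 stood apart in both genotypes on the first principal component (67.6% of the variance), at 57.5 in AFO and 37.2 in control fat against -28.0 to -19.6 elsewhere. In those arrays B cell markers were high, with a mean level of 8.56 in AFO and 8.04 in control pool 2 against 5.16 to 5.73 in the others, and mesothelial markers low, at 4.47 and 5.72 against 8.05 to 8.31. Skeletal muscle markers had a mean level of 5.11 to 12.20 in AFO and 4.79 to 9.85 in control arrays, with all 6 of 6 genes higher in AFO on average.

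Over the 10 genes, 9 had a lower mean in AFO than in control fat and 1, Vegfa, a higher mean. The median difference was -0.27 log2 units over the 5 ligands and -0.25 over the 5 receptors, beside -0.01 over all 13453 genes tested, of which 54.3% were lower. Without the pool 2 arrays these medians were -0.23 for ligands and -0.15 for receptors. Within pools 1, 2 and 3, lower AFO values were read for 7, 10 and 8 of the 10 genes, and 6 genes were lower in all 3 pools, as were 12.8% of all genes. In 2 genes, Angpt1 and Angpt2, the 3 AFO values all lay below the 3 control values, a pattern shown by 1.47% of all genes. With limma's linear model across all genes and Benjamini-Hochberg adjustment, 0 of the 10 genes and 0% of all genes were called at an adjusted p under 0.05. At an unadjusted p under 0.05 stood 2 of the 10, Angpt1 and Angpt2, and 139 of all genes (1.03%). With pool number as a block, 0 of the 10 and 2 of all genes (0.0149%) were called, and 3 of the 10 (Angpt1, Angpt2 and Kdr) and 4.32% of all genes had an unadjusted p under 0.05. With the block and without both pool 2 arrays, 1 of the 10, Angpt1, and 2.01% of all genes were called. Since the same contrast served to choose the 10 genes, nothing is read from these shares.

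**Figure D1:**
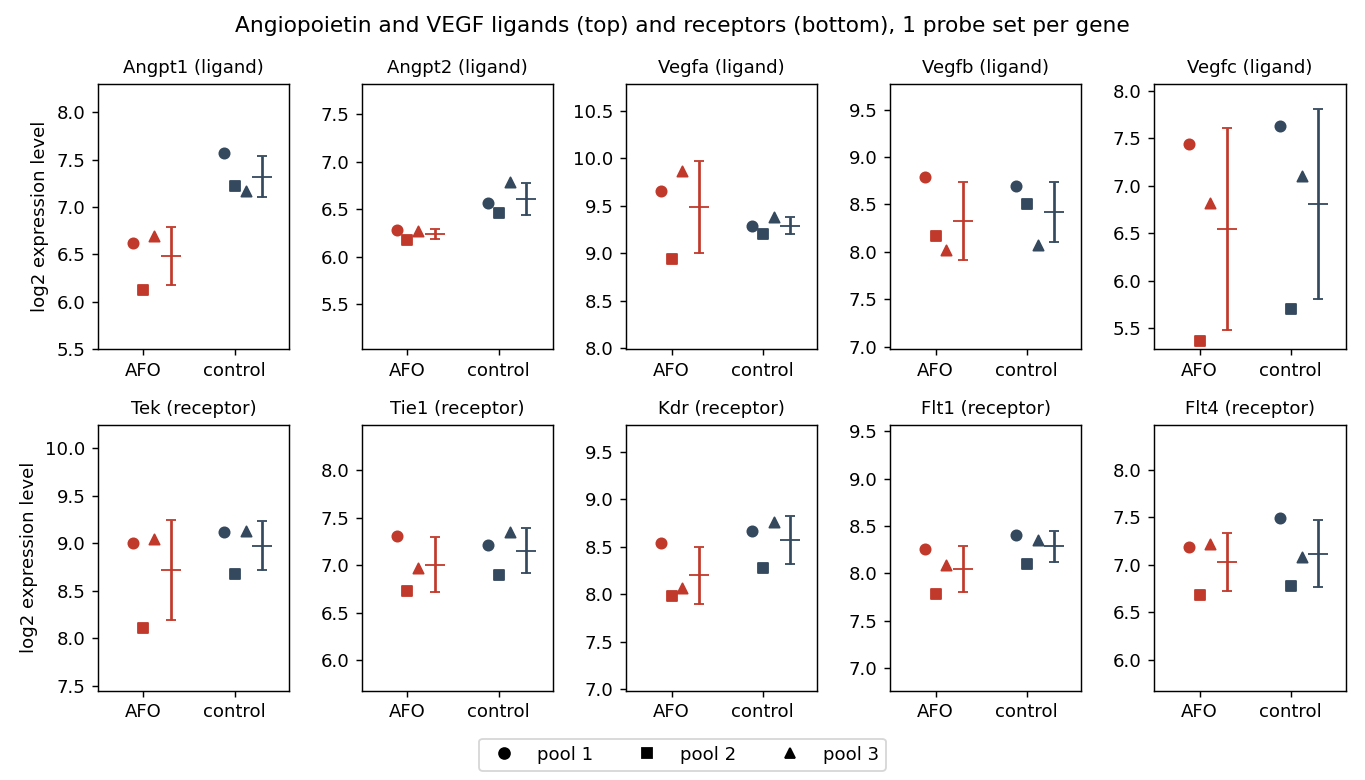
Level of each ligand (top row) and receptor (bottom row) in log2 units, 1 point per array with AFO left of control, marker shape by pool number, and a bar for mean ± SD (n = 3); each panel spans 2.8 log2 units around the gene's own mean. The AFO and control points are separate for Angpt1 and Angpt2 and overlap for the other 8 genes, and the pool 2 points of Vegfc and Tek lie low in both genotypes.

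Angpt1 had the largest difference of the 10. Its brighter probe set, 1439066_at, read 6.62, 6.13 and 6.69 log2 units in AFO pools 1, 2 and 3, against 7.57, 7.22 and 7.17 in the control pools. Every AFO array was below every control array, and the lowest value was that of AFO pool 2. The mean was 6.48 ± 0.31 (SD, n = 3) in AFO fat and 7.32 ± 0.22 (SD, n = 3) in control fat, a difference of -0.84 (SE 0.20), or a ratio of AFO to control of 0.56. Within pools the differences were -0.95, -1.09 and -0.48. Only 10 of the 13453 genes, Angpt1 included, had a difference as low or lower. The second probe set, 1421441_at, read 5.68, 5.59 and 5.79 in AFO and 6.27, 5.83 and 6.18 in control fat. Here too the genotypes did not overlap, though AFO pool 3 and control pool 2 nearly met, and the difference was smaller, at -0.40 (5.69 ± 0.10 in AFO and 6.09 ± 0.23 in control fat). Of all 23142 probe sets above the filter, 1.65% had all AFO arrays below all control arrays. Without the pool 2 arrays the 2 probe sets differed by -0.72 and -0.48.

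Angpt2, the other Tek ligand, was read by 1448831_at at 6.28, 6.18 and 6.27 log2 units in AFO and 6.57, 6.46 and 6.79 in control fat. The AFO arrays lay close together and all below the controls, with means of 6.24 ± 0.05 in AFO arrays and 6.60 ± 0.17 in control arrays (SD, n = 3). The difference was -0.36 (SE 0.14), a ratio of 0.78, and within pools it was -0.29, -0.27 and -0.53. The dim probe set 1459636_at, below the filter, read 3.81 to 3.91 in AFO and 3.62 to 3.92 in control fat, and its difference was 0.08. Both angiopoietins were thus lower in AFO fat by their brighter probe sets. Between them, the log2 ratio of Angpt2 to Angpt1, centred on its mean over the arrays, was 0.14, 0.53 and 0.05 in AFO pools and -0.53, -0.28 and 0.10 in control pools, so the genotypes overlapped in the balance of the 2 ligands.

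Vegfa was the one gene with a higher AFO mean, and its probe sets disagreed. By 1420909_at it read 9.65, 8.94 and 9.86 in AFO pools 1, 2 and 3 and 9.28, 9.20 and 9.38 in control pools. The AFO arrays of pools 1 and 3 were above all controls and that of pool 2 was below them. The means were 9.48 ± 0.48 in AFO arrays and 9.29 ± 0.09 in control arrays (SD, n = 3), a difference of 0.20 (SE 0.24). By 1451959_a_at, a set designed to read several transcripts of the gene, the values were 7.78, 7.04 and 6.77 in AFO and 7.26, 7.27 and 7.57 in control fat, a difference of -0.17. In pool 3 the 2 probe sets pointed opposite ways, 0.48 against -0.80, while in pools 1 and 2 they pointed the same way (0.37 and 0.52 in pool 1, -0.25 and -0.23 in pool 2).

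Vegfb, a ligand of Flt1 that does not bind Kdr, read 8.79, 8.17 and 8.02 in AFO pools and 8.69, 8.50 and 8.07 in control pools. The groups overlapped through their whole range, and the difference was -0.09 (SE 0.26). Vegfc, the lymphatic growth factor, separated the arrays by pool number and not by genotype. Its brightest probe set, 1440739_at, read 7.44, 5.37 and 6.82 in AFO pools 1, 2 and 3 and 7.63, 5.70 and 7.10 in control pools. Relative to the mean of pools 1 and 3, the pool 2 array stood at -1.76 log2 units in AFO and -1.66 in control fat. The genotypes overlapped, with a difference of -0.27 (SE 0.67), but in each pool the AFO value was the lower, by -0.18, -0.33 and -0.28. The other 2 probe sets, 1439766_x_at and 1419417_at, showed the same drop in pool 2 and genotype differences of -0.42 and -0.17.

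**Figure D2:**
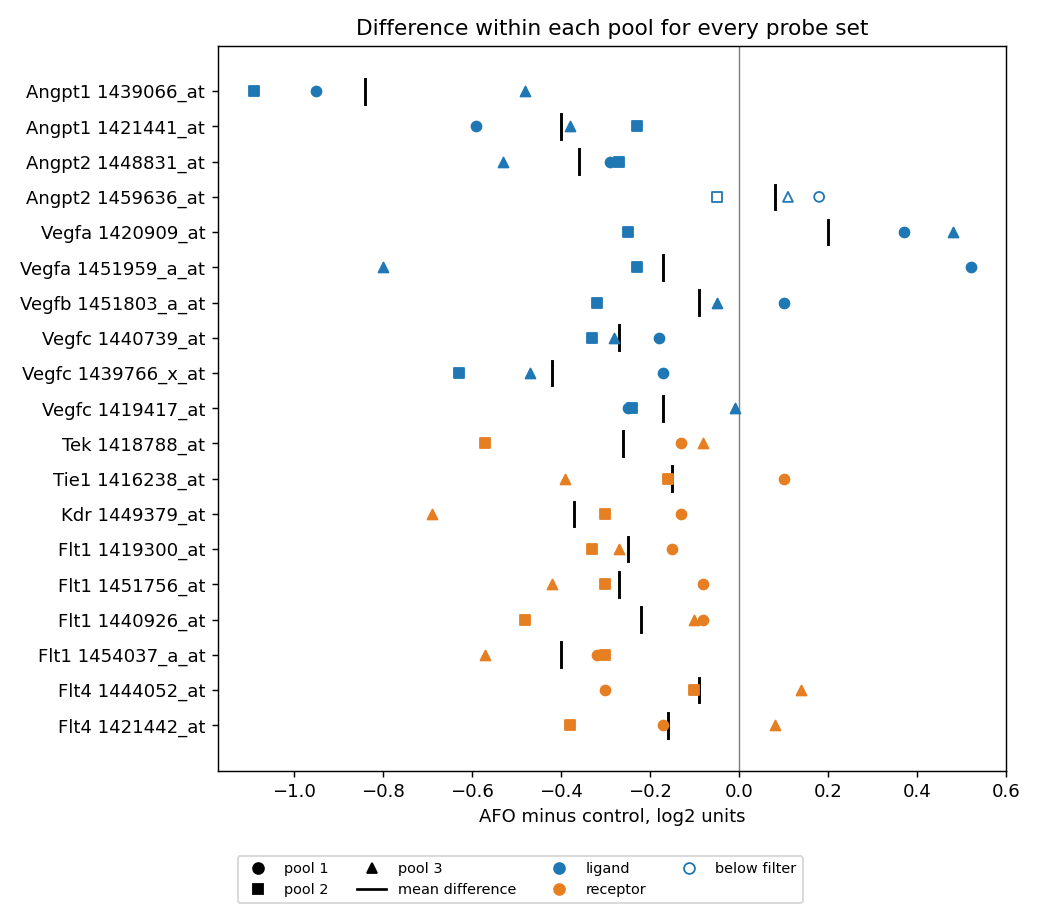
AFO minus control in log2 units within pools 1, 2 and 3 (marker shape) for each of the 19 probe sets, ligands in blue above receptors in orange, with a black line at the mean difference and open markers for the probe set below the filter. Both Angpt1 probe sets and all 4 Flt1 probe sets lie left of 0 in every pool, and the 2 Vegfa probe sets lie on opposite sides in pool 3.

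Among the receptors, Tek, on which both angiopoietins act, read 9.00, 8.11 and 9.05 in AFO pools and 9.12, 8.68 and 9.13 in control pools. AFO pool 2 was the low array, and the other AFO arrays were within the control range. Tek averaged 8.72 ± 0.53 in AFO arrays and 8.98 ± 0.26 in control arrays (SD, n = 3), a difference of -0.26 (SE 0.29) that was -0.10 without the pool 2 arrays. Tie1 read 7.31, 6.73 and 6.97 in AFO and 7.21, 6.89 and 7.35 in control fat. Its groups overlapped, with a difference of -0.15 (SE 0.20) and a higher AFO value in pool 1.

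Kdr, the main signalling receptor for Vegfa, had the largest receptor difference. It read 8.54, 7.98 and 8.07 in AFO pools 1, 2 and 3 and 8.67, 8.28 and 8.76 in control pools. AFO pools 2 and 3 lay below all controls, and AFO pool 1 lay between the controls. Kdr averaged 8.20 ± 0.30 in AFO arrays and 8.57 ± 0.26 in control arrays (SD, n = 3), a difference of -0.37 (SE 0.21), a ratio of 0.77. Flt1, the receptor of Vegfa and Vegfb, had 4 probe sets, whose differences were -0.25, -0.27, -0.22 and -0.40 from the brightest to the dimmest. The brightest, 1419300_at, read 8.26, 7.78 and 8.09 in AFO and 8.41, 8.10 and 8.35 in control fat, with AFO pools 2 and 3 below all controls. In each of the 4 Flt1 sets the AFO value was the lower in all 3 pools, and in each of them the groups overlapped. Probe sets of 1 gene are read from the same RNA and do not count as replicates.

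Flt4, the receptor of Vegfc on lymphatic vessels, read 7.19, 6.68 and 7.22 in AFO pools and 7.49, 6.78 and 7.08 in control pools by 1444052_at. The groups overlapped, with a difference of -0.09 (SE 0.24), negative in pools 1 and 2 and positive in pool 3. The dimmer set 1421442_at had the same order of signs and a difference of -0.16.

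As a class, the 5 receptors moved with the pool. Centred on each gene's mean and averaged, they stood at 0.15, -0.45 and -0.03 log2 units in AFO pools 1, 2 and 3 and at 0.27, -0.16 and 0.23 in control pools, so pool 2 was the lowest array of each genotype. The 5 ligands stood at 0.20, -0.59 and -0.02 in AFO and at 0.40, -0.14 and 0.15 in control pools. Ligands and receptors thus had the same order of arrays within each genotype, and in every pool both class means were lower in AFO. Among the ligands, the 2 angiopoietins and Vegfc were lower in AFO in pools 1 and 3, and Vegfb in pool 3. In pool 2 all 5 ligands were lower in AFO. The 2 angiopoietins stood at -0.21, -0.50 and -0.18 in AFO and at 0.41, 0.17 and 0.32 in control pools. The 3 VEGF ligands stood at 0.48, -0.65 and 0.09 in AFO and at 0.39, -0.35 and 0.04 in control pools. This mean was higher in AFO in pools 1 and 3 and lower in pool 2, and the median difference was -0.09 (0.03 without the pool 2 arrays). In pool 3 the higher mean came from Vegfa 1420909_at alone (0.48), as Vegfb (-0.05) and Vegfc (-0.28) were lower. The other Vegfa set, 1451959_a_at, differed by -0.80 there.

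Receptors of this kind are made mainly by endothelial cells, so 19 endothelial markers outside the 10 genes were read in the same arrays. Of these, 18 were lower in AFO fat, 0 were called, and the median difference was -0.17, with -0.14, -0.20 and -0.22 within pools. With 1 array left out this median ran from -0.42 without control pool 2 to 0.03 without AFO pool 2. Their mean level ran from 8.17 to 8.87 in AFO and from 8.37 to 9.04 in control arrays, and all 19 were above the filter. Set against the endothelial markers of the same array, the 5 receptors differed between the genotypes by -0.06, with centred values of 0.02, 0.09 and -0.19 in AFO pools and 0.01, 0.18 and -0.10 in control pools, which overlapped. Kdr taken alone differed by -0.21 on this scale, most in pool 3 (-0.53), and the other receptors by -0.09 to 0.08. In whole fat, fewer endothelial cells and less receptor RNA in each cannot be told apart. Endothelial genes named by the rule for lists were Mmrn2 at -0.29 (SE 0.25), Eng, a co-receptor of the TGF beta family, at -0.29 (SE 0.31) and the junction protein Esam at -0.25 (SE 0.29).

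Angpt1, by its brighter probe set 1439066_at, was set against the same markers and against those of cells known to make it. Relative to the endothelial markers it read -0.41, -0.23 and -0.37 in AFO pools and 0.41, 0.66 and -0.06 in control pools, a difference of -0.68 with no overlap. Relative to 11 markers of mural cells, the muscle cells and pericytes of the vessel wall, the difference was -0.67, with AFO arrays at -0.45 to -0.21 and control arrays at 0.12 to 0.58. Relative to 9 markers of stromal progenitors it was -0.93, with AFO arrays at -0.70 to -0.32 and control arrays at 0.19 to 0.64. On all 3 scales the genotypes stayed apart by 1439066_at, with the narrowest gap in pool 3. The low AFO signal of Angpt1 had served to choose the set. The share of all genes that stay apart on these scales is not given. Nothing is therefore read from this separation. The dimmer Angpt1 probe set 1421441_at, with a smaller difference of -0.40, was not set against the lists. Angpt2 overlapped between the genotypes on the endothelial scale (a difference of -0.20) and on the mural scale (-0.19).

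**Figure D3:**
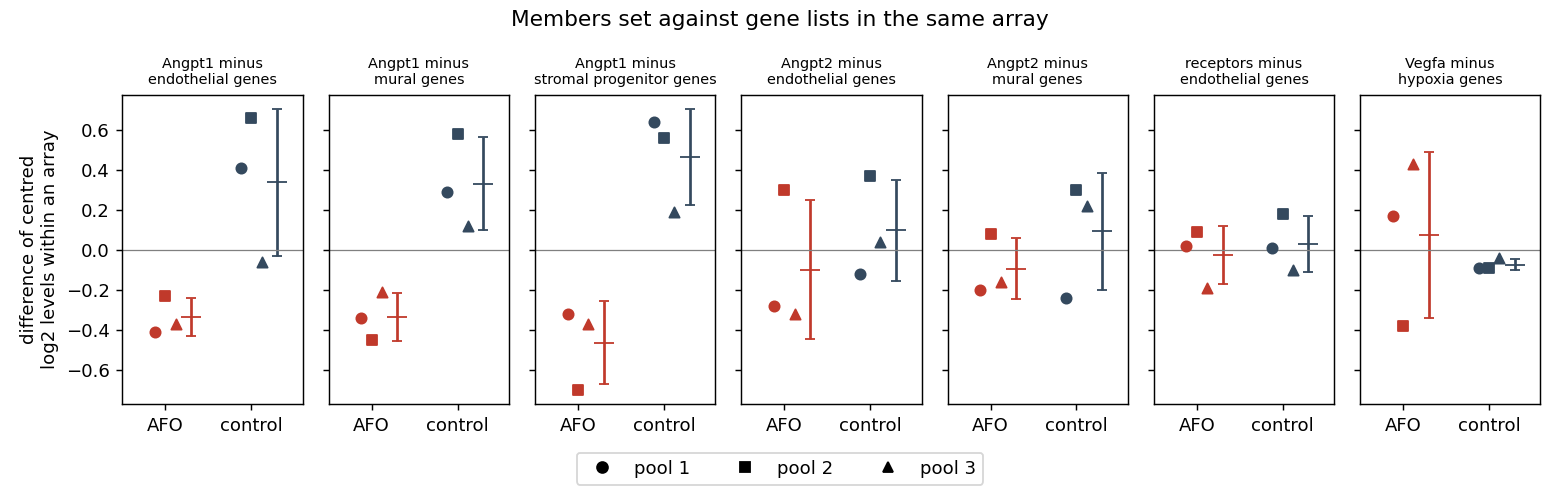
Centred log2 level of Angpt1, Angpt2, the 5 receptors or Vegfa minus that of a gene list in the same array, with AFO left of control, marker shape by pool number and a bar for mean ± SD (n = 3). By its brighter probe set Angpt1 is separated between the genotypes against endothelial, mural and stromal progenitor genes, with differences of -0.68, -0.67 and -0.93. The receptors overlap against endothelial genes at -0.06, and Vegfa is read by 1420909_at.

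The marker lists themselves gave the following values. Mural genes were lower in AFO fat in 10 of 11 cases, with a median of -0.28 and a mean level of 8.65 to 9.03 in AFO and 8.70 to 9.35 in control arrays. With 1 array left out the mural median ran from -0.48 (without control pool 2) to -0.04 (without AFO pool 2). Cspg4, a pericyte proteoglycan, differed by -0.28 (SE 0.22), the receptor Notch3 by -0.22 (SE 0.20), and the muscle filament gene Des, also expressed in skeletal muscle, by 0.63 (SE 0.56). That of Des came from 1 array, AFO pool 2 at 9.39, and was 0.05 without the pool 2 arrays. Stromal progenitor genes were lower in 3 of 9 cases, with a median of 0.06 and a mean level of 9.40 to 9.63 in AFO and 9.22 to 9.55 in control arrays. Among them the collagen gene Col1a1 differed by 0.56 (SE 0.24), its AFO arrays all above the controls as in 2.03% of all genes, Col3a1 by 0.19 (SE 0.38) and Dpp4 by 0.10 (SE 0.20). Lymphatic genes were lower in 5 of 5 cases, with a median of -0.16, and included Reln at -0.16 (SE 0.25), Foxc2, a transcription factor of lymphatic valves, at -0.28 (SE 0.67) and Mmrn1 at -0.21 (SE 0.51). With 1 array left out the lymphatic median ran from -0.52 (without control pool 2) to 0.27 (without AFO pool 2). The part of these cell types in the results was not tested beyond the values set side by side here.

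Fat cell markers were lower in 7 of 7 cases, with a median of -0.22 (-0.01, -0.38 and -0.22 within pools), among them Retn at -0.23 (SE 0.13), Lipe at -0.34 (SE 0.23) and Cidec at -0.20 (SE 0.22). The fat cell median was -0.43 without AFO pool 1 and -0.05 without AFO pool 2. Mesothelial genes had a median of -0.24, with 5 of 6 lower and -0.70 in pool 2, where Krt19 differed by -2.64, and Lrrn4 and Msln differed by -0.56 (SE 1.38) and -0.27 (SE 1.43) over all pools. B cell genes had a median of -0.02, with Ms4a1 at -0.16 (SE 1.56), Cd79b at 0.13 (SE 1.43) and Pax5 at 0.02 (SE 0.18). Skeletal muscle genes had a median of 2.45, by pool 4.36, 2.43 and 0.45, with Ckm at 2.43 (SE 1.78), Atp2a1 at 2.46 (SE 1.98) and Acta1 at 1.82 (SE 1.49). Muscle genes and the brighter Angpt1 probe set both differed least in pool 3, Angpt1 by -0.95, -1.09 and -0.48 in pools 1, 2 and 3. The muscle median differed most in pool 1 and this Angpt1 probe set in pool 2. The dimmer Angpt1 probe set differed least in pool 2, by -0.59, -0.23 and -0.38 in the same pools. The part of muscle RNA in the Angpt1 level was not tested. In each of these 7 marker lists limma called 0 genes, and 0 had an unadjusted p under 0.05.

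Other genes of the pathways, upstream and downstream of the receptors, were read as lists, beside the median of -0.01 over all genes. Of 15 genes acting with angiopoietins and Tie receptors 9 were lower and 6 higher, with a median of -0.10 and 0 called. Grb7, an adaptor that binds Tek, read 7.02, 6.05 and 6.84 in AFO and 5.86, 6.35 and 5.68 in control fat, higher in AFO pools 1 and 3 and lower in pool 2, with a difference of 0.68 (SE 0.30). Tnip2 differed by -0.19 (SE 0.13), and Klf2, a flow-induced endothelial transcription factor, by 0.23 (SE 0.21). Of 15 tested genes of the VEGF pathway, from a list of 20, 9 were lower and 6 higher, with a median of -0.01 and 0 called. The heat shock protein gene Hspb1 differed by 0.41 (SE 0.22), the Flt1 ligand Pgf by 0.19 (SE 0.15) and the co-receptor Nrp2 by -0.19 (SE 0.16).

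Genes that VEGF induces in endothelial cells had 5 of 9 lower and a median that rounds to 0.00, with 0 called. Rcan1, a calcineurin inhibitor, differed by 0.16 (SE 0.14), Unc5b by -0.17 (SE 0.18) and Nr4a1 by 0.28 (SE 0.29). Hypoxia genes, read because low oxygen raises Vegfa, had 7 of 17 lower, a median of 0.03 and 0 called. Ankrd37 differed by 0.49 (SE 0.20), as the 1 gene of the pathway lists with an unadjusted limma p under 0.05. Its groups overlapped, and it passed the filter of 4.88 through its AFO values. Its mean was 5.16 log2 units in AFO and 4.67 in control fat, so nothing is read from this p. The oxygen sensor Egln3 differed by 0.35 (SE 0.22) and the hypoxia factor Epas1 by -0.18 (SE 0.20). Against the hypoxia list in the same array, Vegfa by 1420909_at read 0.17, -0.38 and 0.43 in AFO and -0.09, -0.09 and -0.04 in control pools. The spread was wider in AFO. The other Vegfa set, 1451959_a_at, was not set against the list, and in pool 3 it differed by -0.80 where 1420909_at differed by 0.48. Of 25 other angiogenic genes 18 were lower, with a median of -0.12 and 0 called, and these included S1pr1 at -0.21 (SE 0.21), the ephrin Efnb2 at -0.29 (SE 0.28) and Notch1 at -0.15 (SE 0.14).

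**Figure D4:**
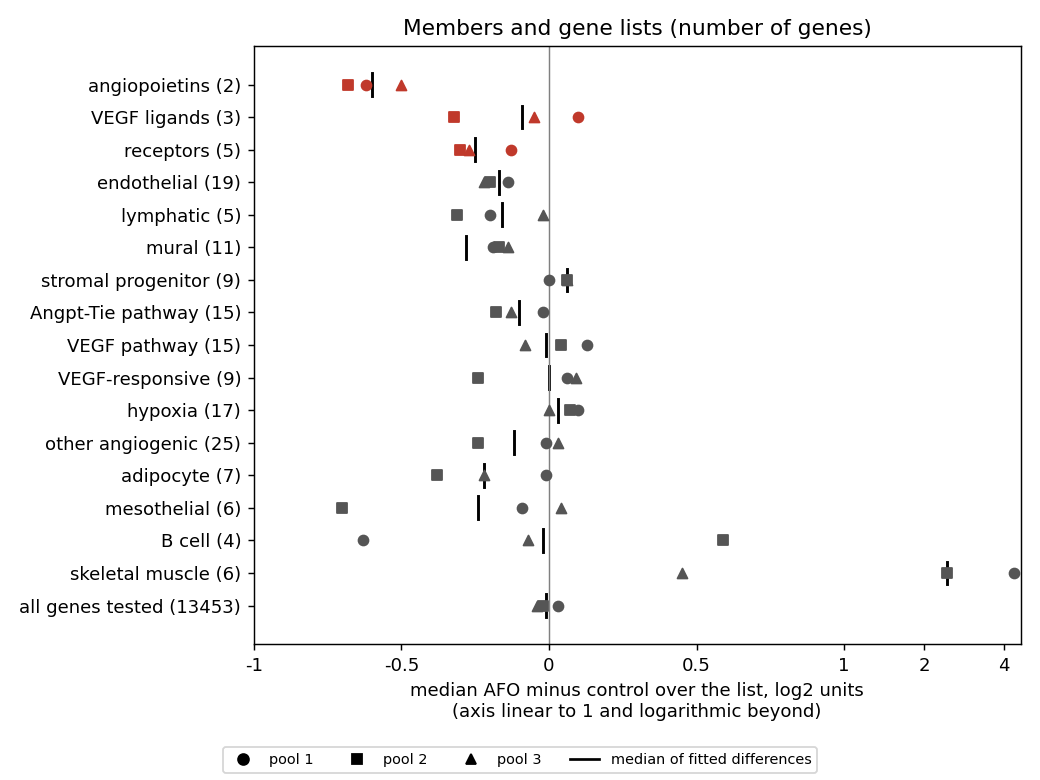
Median AFO minus control in log2 units within pools 1, 2 and 3 (marker shape) and the median of the fitted differences (black line) for the 2 angiopoietins, 3 VEGF ligands and 5 receptors (red) and for the gene lists and all genes (grey), with the number of genes in brackets and an axis that is linear to 1 and logarithmic beyond. The angiopoietins lie between -0.68 and -0.50 in the 3 pools, the receptors and endothelial genes between -0.30 and -0.13, and all genes between -0.04 and 0.03.

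Patterns across arrays were compared by the root mean square difference of log2 values centred on each gene's mean, over the 6 arrays and 13452 other genes. Nearest to Angpt1 were Aspa, which encodes aspartoacylase (0.20), the glutamate transporter gene Slc1a3 (0.24), the syntrophin gene Sntb1 (0.26), Rnf24 (0.26) and Btc, which encodes the EGF family ligand betacellulin (0.27). Aspa read 8.04, 7.40 and 7.72 in AFO and 8.43, 8.15 and 8.17 in control pools, with no overlap. Slc1a3 did not overlap either, at 8.98 to 9.56 in AFO and 9.69 to 9.83 in control fat. Of all genes 1.47% had all AFO values below all controls. Since the distance includes the genotype difference, genes near Angpt1 are lower in AFO by the way they were chosen. Sntb1, Rnf24 and Btc overlapped. Of the other 9 ligands and receptors, Flt1 ranked 87, Angpt2 104, Kdr 105 and Tek 210 in nearness to Angpt1, each between 0.33 and 0.35, and Vegfc was farthest at 0.74.

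Nearest to Kdr were Cpeb2, an mRNA-binding protein gene (0.03), the magnesium transporter gene Nipa1 (0.06), Hnmt, which encodes histamine methyltransferase (0.06), the kinase gene Map3k4 (0.07) and Hoxa7 (0.07). Cpeb2 read 7.96, 7.33 and 7.50 in AFO and 8.04, 7.64 and 8.16 in control pools, the same order of arrays within each genotype as Kdr. Tie1 ranked 75 at 0.12 and Flt1 103 at 0.13, while Tek and Flt4 were both at 0.26 and Angpt1 at 0.33. The pool 2 arrays, low for most of these genes in both genotypes, enter all of these distances, as does the difference between the genotypes.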

How the data were processed

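White fat RNA of 3 AFO and 3 control pools was measured on Affymetrix arrays. The deposited values are log2 levels, and per the submitters' processing notes the authors made them with RMA in Affymetrix Expression Console 1.4. RMA equalises the arrays' distributions, so a shift shared by most genes cannot be seen, and it compresses dim signals. The genome build behind the probe sets and the number of mice per pool are not given in the sources at hand. Groups came from the titles, and the replicate number in each title is the pool number in that sample's description.

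Probe sets of a single gene with a mean of 4.88 or more, the 40th percentile, entered, and each gene was read from its brightest one, giving 13453 genes. AFO minus control was fitted with limma 3.58.1 in R 4.3.3 (empirical Bayes with trend, unpaired, Benjamini-Hochberg), after the fit was tested on simulated data. The pairing of equal pool numbers was checked: deviations from the genotype means correlated across genes at 0.594, 0.799 and 0.589, above the 0.1 asked for, but so did control 1 with AFO 3 (0.441) and control 3 with AFO 1 (0.362), so the check is not specific to equal numbers, and no label states what equal numbers have in common. Alternatives covered the filter, normalisation, choice of probe sets, variance model, array weights, pool number as a block and omitted arrays.

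The 10 genes, the 13 lists and the alternatives were chosen with earlier results of these data known. Genes named outside the 10 are Fto, the 3 with the smallest p in each list and the 5 nearest in pattern to Angpt1 and to Kdr. Of the lists 5 genes lay below the filter. Of the VEGF pathway list 5 genes, and of the other lists 6 in all, were not analysed here. Distances and comparisons with lists in the same array used values centred on each gene's mean.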

Additional observations from a re-analysis of the deposited data

How the results depend on the processing

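The differences of Angpt1 (-0.94 to -0.62), Angpt2 (-0.44 to -0.27), Kdr (-0.55 to -0.26), Flt1 (-0.36 to -0.11) and Tie1 (-0.31 to -0.02) were below 0 under all 19 alternatives. That of Vegfa was above 0 (0.01 to 0.47), with probe sets fitted singly summarised by their median. The Vegfa set 1451959_a_at alone differed by -0.17. Changes of filter, variance model and pool block left these estimates as they were. For Angpt1 and Angpt2 the genotypes did not overlap, so omitting arrays could not turn the sign. Nothing is therefore read from the constant signs of genes chosen by these values. Signs turned for Tek without AFO pool 2 (0.05), for Vegfc without AFO pool 2 (0.32) or control pool 1 (0.14), for Flt4 without AFO pool 2 (0.09) or control pool 1 (0.10), and for Vegfb under 4 alternatives (up to 0.06). With 1 array left out, the ligand median ran from -0.44 to 0.05 (the highest without control pool 1; -0.01 without AFO pool 2) and the receptor median from -0.36 to -0.02 (the highest without AFO pool 2). The cause was not tested. Of all genes, limma called 0 to 27 with 1 array left out (27, or 0.201%, without AFO pool 2), 91 (0.676%) without both pool 2 arrays, 2 with pool number as a replicate block and 270 (2.01%) with the block and without pool 2. Of the 10 genes it called 0, except in that last fit, where 1 passed, Angpt1 at -0.72 (adjusted p 0.043 by limma, over 4 arrays). The low AFO signal of Angpt1 had served to choose the set, and this alternative was chosen with earlier results known. Nothing is therefore read from that call. The block changed no other call among the 10. With 1 array left out, the median turned sign without AFO pool 2 for the endothelial (0.03), lymphatic (0.27), mesothelial (1.01), Angpt-Tie pathway (0.03) and other angiogenic (0.11) lists, and without control pool 1 or 3 for the mesothelial list (0.30 and 0.17). The Angpt-Tie and lymphatic medians also turned without control pool 3 (0.02 and 0.01), the VEGF pathway median without control pool 1 (0.02) and AFO pool 3 (0.03), the stromal progenitor median without control pool 2 (-0.02), and the B cell median without control pool 2 (1.02), AFO pool 1 (0.61) and AFO pool 3 (0.65). The skeletal muscle median stayed above 0 (0.84 without AFO pool 2 to 4.20 without AFO pool 3). Signal limits the second Angpt2 probe set, which is below the filter.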

Other observations

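Genes of lymphatic vessels also read lower in pool 2, to unlike extents. Foxc2 stood below the mean of pools 1 and 3, at -1.80 log2 units in AFO and -1.76 in control fat, and Mmrn1 at -1.44 in AFO and -1.24 in control fat, beside -1.76 in AFO and -1.66 in control fat for Vegfc. Reln, the other lymphatic gene named by the rule, had -0.71 in AFO and -0.40 in control fat. The receptor Flt4 stood lower by less, at -0.53 in AFO and -0.51 in control fat. Kdr had -0.33 in AFO and -0.44 in control fat, and Tie1 had -0.41 in AFO and -0.39 in control fat. Tek had -0.91 in AFO and -0.45 in control fat. Low values in pool 2 were not particular to lymphatic genes. Of the mesothelial genes named by the rule, Msln had -4.02 in AFO and -3.71 in control fat, and Lrrn4 -3.98 and -3.44. Krt19 had -3.16 in AFO and -0.33 in control fat. Pool number is no comparison of the design, and these values are untested.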
